A study of Rattus norvegicus with 6 samples.

Results

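Notch receptors, their ligands and their targets were examined in rat RA-FLS (fibroblast-like synoviocytes, the fibroblasts that line the joint). The set held 10 genes chosen by name from the 34156 genes of the count table: the receptors Notch1, Notch2, Notch3 and Notch4, the ligands Jag1, Jag2, Dll1 and Dll4, and the target genes Hes1 and Hey1. Wild-type RA-FLS bought from a cell supplier received 10 ng/mL TNF-α (TNF-α group, 3 libraries) or 10 ng/mL TNF-α together with 80 μmol/L EMO (TNF-α+EMO group, 3 libraries). EMO is emodin, an anthraquinone of rhubarb. Every library was therefore exposed to TNF-α, and no library without it was analysed here, so the comparison asks what differed when EMO was added to TNF-α. The labels place the cells at day 5, whereas the study's methods give a shorter incubation. The methods call the libraries of a group biological replicates, and whether they came from separate animals is not given in the sources used here, so the spread between them may be partly technical.

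Notch receptors are single-pass membrane proteins that are activated by ligands on a neighbouring cell. Binding of a Jagged or Delta-like ligand exposes the receptor to ADAM proteases and then to γ-secretase, and the released intracellular domain joins the DNA-binding protein RBPJ and Mastermind coactivators in the nucleus. Genes of the HES and HEY families, which encode transcriptional repressors, are classical targets of this complex. In the synovium, NOTCH3 signalling from the endothelium is known for shaping the fibroblasts that lie around vessels.

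With EMO, transcripts of the receptors Notch1 and Notch2 fell 10.2-fold and 9.92-fold, and those of the ligands Jag1 and Dll1 fell 5.58-fold and 4.16-fold. Notch4 and Dll4, which are best known from endothelial cells, were higher with EMO, but from and to low levels. The target Hes1 fell by only 0.40 on the log2 scale. Notch3, Jag2 and Hey1 had too few counts to be tested. A gene is named a DEG where its adjusted p was under 0.05 by edgeR's quasi-likelihood test over 13614 genes and its absolute log2 fold change was over 1. By this rule 6 of the 7 members tested were DEGs, 4 lower and 2 higher with EMO, while 47.3% of all genes tested were DEGs, 27.8% lower and 19.5% higher. Of the 7, Notch4, Jag1 and Dll4 had at least 10 counts in every library of 1 group only, so their passing the filter on low counts depended on the group in which they were higher.

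To show the promoters behind the members that moved and the one that changed little, 300 bases around the RefSeq start of each gene (250 before it and 50 after) were read on the gene's strand in build GRCr8. In the first pair, capitals mark GTGGGAA, the core of an RBPJ site, or its reverse complement.
Hes1 (chr11:84212996-84213295, minus strand): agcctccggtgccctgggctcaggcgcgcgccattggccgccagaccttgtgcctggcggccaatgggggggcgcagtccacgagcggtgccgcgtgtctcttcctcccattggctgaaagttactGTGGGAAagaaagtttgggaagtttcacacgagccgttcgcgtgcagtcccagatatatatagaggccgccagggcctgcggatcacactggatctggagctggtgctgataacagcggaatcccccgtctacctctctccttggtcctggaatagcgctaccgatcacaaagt
Dll1 (chr1:64993225-64993524, minus strand): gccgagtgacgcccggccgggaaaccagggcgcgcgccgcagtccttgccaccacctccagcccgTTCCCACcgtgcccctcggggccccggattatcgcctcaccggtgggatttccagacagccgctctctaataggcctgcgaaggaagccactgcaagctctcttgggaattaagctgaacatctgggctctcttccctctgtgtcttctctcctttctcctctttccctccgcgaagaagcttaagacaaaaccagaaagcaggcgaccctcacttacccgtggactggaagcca
In the second pair, capitals mark CACGNG, a class C site that HES and HEY repressors can bind.
Notch1 (chr3:29721564-29721863, minus strand): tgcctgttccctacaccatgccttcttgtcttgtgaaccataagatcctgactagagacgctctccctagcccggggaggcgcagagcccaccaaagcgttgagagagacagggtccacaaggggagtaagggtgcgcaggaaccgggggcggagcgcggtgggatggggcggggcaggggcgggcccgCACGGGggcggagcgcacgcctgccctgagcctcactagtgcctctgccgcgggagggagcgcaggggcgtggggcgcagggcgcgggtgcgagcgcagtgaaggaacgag
Notch2 (chr2:188299086-188299385, plus strand): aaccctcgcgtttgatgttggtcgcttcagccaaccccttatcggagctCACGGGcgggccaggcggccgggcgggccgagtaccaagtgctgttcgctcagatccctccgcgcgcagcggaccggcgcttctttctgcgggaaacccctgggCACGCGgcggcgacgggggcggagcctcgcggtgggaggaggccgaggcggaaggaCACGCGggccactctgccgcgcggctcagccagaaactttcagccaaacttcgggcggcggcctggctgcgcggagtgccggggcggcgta

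RefSeq promoters were matched for 8 of the 10 members, Jag2 with 2 starts, and Dll4 and Hey1 had none in the table. Both strands were searched. The RBPJ core was found once in Hes1, from position -124, and once in Dll1, from position -185 on the opposite strand, where positions count from the start of the gene. Among all 33469 promoters of the same length, 6.29% held it. Only this spelling of the core was searched, so RBPJ sites of other spellings in these windows would be missed. CACGNG occurred 3 times in Notch2, 4 times in Hes1, 2 times in Jag1, and once each in Notch1, Dll1 and 1 of the Jag2 promoters, against 26.1% of all promoters with at least 1 match. The N box CACNAG, which HES factors also bind, occurred 4 times in Notch1, 4 times in Hes1, 2 times in Notch4 and once in Notch3, against 43.1% of all promoters. In Hes1, 2 of the N boxes are also CACGNG matches, since both motifs allow the letters CACGAG, and in Notch1 2 of the N boxes overlap each other. For NF-κB a single strict spelling of its motif was searched, which gave no match in the members' promoters, and 1.53% of all promoters held it. Other spellings of this motif were not searched, so the search cannot tell whether these promoters lack NF-κB type sites. The members' promoters were rich in G and C (57.3% to 84.7%, against a median of 51.7% over all promoters), which by itself favours motifs that contain CG. These matches describe the letters of these windows only.

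The libraries held 16813322 to 17794455 counts on genes. TNF-α+EMO replicate 3 stood somewhat apart: a chi-square statistic per gene, near 1 for sampling noise alone, was 23.5 and 15.1 between it and the other TNF-α+EMO libraries, against 4.62 to 6.27 within the other pairs of a group. Of 13 FLS markers in the table, Pdgfra, Cdh11, Vcam1, Col1a1 and Vim were abundant with TNF-α, whereas Pdpn, Thy1 and Prg4 had at most 7 counts in any library. With EMO, 9 of the 10 FLS markers tested were lower DEGs and none was higher. Over all genes tested, 27.8% were lower and 19.5% higher DEGs. The summed length-scaled level of the FLS list went from 3709 to 3945 RPKM with TNF-α to 1043 to 1123 RPKM with EMO. RPKM here means counts scaled by gene length and effective library size. The part of this fall in the changes of the Notch genes was not tested. In bulk RNA, fewer cells of a kind and less RNA per cell cannot be told apart.

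Notch2, a receptor expressed in many mesenchymal cells, was by RPKM the most abundant of the 4 receptors in every library. It had 5218, 5342 and 4517 counts with TNF-α and 524, 457 and 468 with EMO. The groups lay far apart, and the lowest TNF-α library exceeded the highest TNF-α+EMO library by several times. Normalized counts (counts scaled by the effective library size to the mean over libraries) were 4909 ± 443 with TNF-α and 495 ± 39.7 with EMO (SD, n = 3 in each group). The log2 fold change was -3.31 (standard error 0.09, edgeR adjusted p = 8.6e-11). The gene (ENSRNOG00000018835) lies on chromosome 2 from 200187179 to 200320215 (plus strand, build Rnor_6.0, as all deposited coordinates). In length-scaled level, Notch2 went from 24.7 ± 2.23 RPKM, above 71.7% of the genes tested, to 2.49 ± 0.20 RPKM, above 28.6% of them.

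Notch1 (ENSRNOG00000019322, chromosome 3, 3905453 to 3951025, minus strand), the receptor of classical Notch signalling in lymphocyte and vessel development, also fell strongly. Its counts were 734, 873 and 791 with TNF-α and 60, 79 and 85 with EMO, without overlap. The log2 fold change was -3.35 (standard error 0.13, edgeR adjusted p = 1.3e-09), and the level went from 4.77 ± 0.40 to 0.47 ± 0.08 RPKM. The log2 ratio of Notch2 over Notch1 in RPKM overlapped between the groups, 2.23 to 2.55 with TNF-α and 2.18 to 2.85 with EMO. The difference between the group means of this ratio was 0.05 (exact permutation test, two-sided p = 0.9, adjusted p = 0.9 over 3 ratios chosen after the values were seen, where the smallest p possible is 0.1).

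Notch4 (ENSRNOG00000000442, chromosome 20, 4329811 to 4353785, plus strand), a receptor known mainly from endothelium, went the other way. It had 8, 17 and 14 counts with TNF-α and 50, 35 and 53 with EMO. The groups did not overlap, but the counts were low in all 6 libraries. On the log2 scale Notch4 rose by 1.88 (standard error 0.34, edgeR adjusted p = 3.9e-04). The level went from 0.11 ± 0.04 to 0.42 ± 0.09 RPKM, close to that of Notch1 with EMO, whose libraries spanned 0.38 to 0.53 RPKM against 0.32 to 0.49 RPKM for Notch4. Another annotated gene, LOC103689965, covers the whole of Notch4 on the opposite strand and had 2 to 11 counts per library, and the strand setting of the counting is not given in the sources used here, so some Notch4 reads could belong to it. Its own counts were 11, 2 and 6 with TNF-α and 6, 8 and 8 with EMO.

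Notch3 (ENSRNOG00000004346, chromosome 7, 14138495 to 14189688, minus strand), the receptor tied to perivascular synovial fibroblasts and mural cells, was barely detected. Its counts were 3, 8 and 6 with TNF-α and 0, 1 and 0 with EMO. With EMO every library was thus under the floor of 3 counts, up to which a level is not told apart from 0. Over the groups 17 counts stood against 1, a ratio of 16.2 with an exact 95% interval from 2.54 to 677 that covers counting error only. Notch3 did not pass the filter of 10 counts in 3 libraries. Without the filter its edgeR adjusted p was 0.011.

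**Figure D1:**
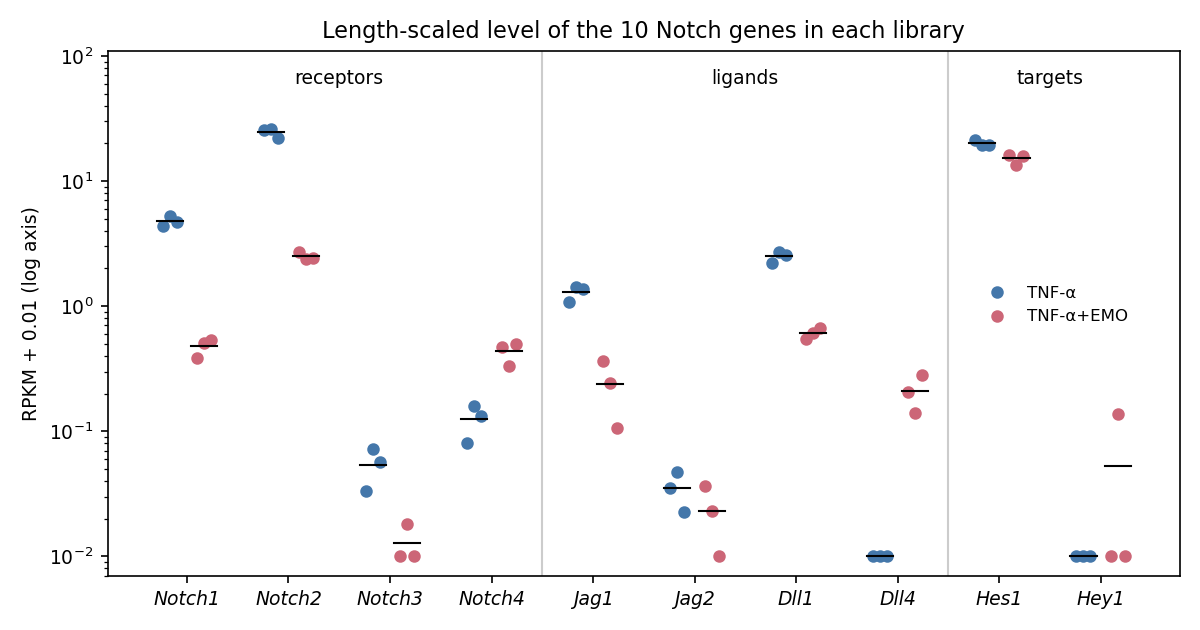
Length-scaled level of the 10 Notch genes in each of the 6 libraries, as RPKM plus 0.01 on a log axis. Points are libraries (blue TNF-α, red TNF-α+EMO) and black lines are group means. Notch1, Notch2, Jag1 and Dll1 lie lower with EMO, Notch4 and Dll4 lie higher, and Hes1 moves little.

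The level of the 4 receptors together was 27.0 to 31.6 RPKM with TNF-α and 3.18 to 3.56 RPKM with EMO, 8.75-fold lower in the means. The two-sided exact permutation p was 0.1, the smallest that 3 libraries against 3 allow. Shares of this pool were compared as well. Notch2 accounted for 82.0% to 85.2% of receptor RPKM with TNF-α and for 70.3% to 76.4% with EMO. Notch4 accounted for 0.23% to 0.47% with TNF-α and for 10.1% to 14.2% with EMO. Both shares were separated between the groups without overlap (exact permutation test, two-sided p = 0.1, adjusted p = 0.16 over 8 shares), whereas the Notch1 share, 14.5% to 17.4% with TNF-α and 10.6% to 15.5% with EMO, overlapped (p = 0.4, adjusted p = 0.53, exact permutation test).

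Among the ligands, Dll1 (ENSRNOG00000059984, chromosome 1, 57318708 to 57327379, minus strand), a Delta-like ligand, had the highest RPKM of the 4 in every library. It had 143, 176 and 166 counts with TNF-α and 33, 37 and 41 with EMO. The libraries of each group were close together and the groups did not overlap. The log2 fold change was -2.06 (standard error 0.19, edgeR adjusted p = 1.7e-06), and the level went from 2.50 ± 0.25 to 0.60 ± 0.06 RPKM.

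Jag1 (ENSRNOG00000007443, chromosome 3, 130079361 to 130114770, minus strand), a Jagged ligand expressed in many mesenchymal and endothelial cells, had 104, 140 and 133 counts with TNF-α and 33, 22 and 9 with EMO. The groups did not overlap, but the TNF-α+EMO libraries were widely spread, with replicate 3 the lowest. The log2 fold change was -2.48 (standard error 0.37, edgeR adjusted p = 9.5e-05). Without TNF-α+EMO replicate 3 it was -2.09 (edgeR adjusted p = 5.5e-07). The level went from 1.28 ± 0.19 to 0.23 ± 0.13 RPKM. The log2 ratio of Jag1 over Dll1 ranged from -1.06 to -0.92 with TNF-α and from -2.79 to -0.60 with EMO, so a different fall of the 2 ligands was not resolved (exact permutation test, two-sided p = 0.6, adjusted p = 0.9 over the 3 ratios).

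Dll4 (ENSRNOG00000014011, chromosome 3, 111135021 to 111145986, plus strand), a ligand best known from sprouting vessels, was not counted at all with TNF-α (0 in the 3 libraries) and had 15, 10 and 21 counts with EMO. Since the TNF-α group lay under the floor, the change is given as a bound: Dll4 was at least 5.36-fold higher with EMO, against 3 counts per library (edgeR adjusted p = 1.8e-04). Its level with EMO was 0.20 ± 0.07 RPKM, above only 7.37% of the genes tested. Jag2 (ENSRNOG00000013927, chromosome 6, 137711155 to 137733026, minus strand), the other Jagged ligand, had 2, 3 and 1 counts with TNF-α and 2, 1 and 0 with EMO, at or under the floor in both groups, and no fold is given.

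Markers of other cell types were set beside Notch3, Notch4 and Dll4, and their part in the changes of these genes was not tested. As a background for the counts of DEGs in these lists, 27.8% of all genes tested were lower and 19.5% higher DEGs. Of 8 endothelial markers in the table, Kdr, Emcn and Cldn5 had 0 counts in every library. Tie1 had 0, 1 and 1 counts with TNF-α and 1, 5 and 3 with EMO, Tek had 13, 7 and 18 against 4, 9 and 2, and Cdh5 had 11, 8 and 3 against 8, 3 and 9. The 2 that could be tested, Erg and Vwf, were lower DEGs that passed the filter through the TNF-α libraries. The summed level of the list was 6.55 to 8.34 RPKM with TNF-α and 0.31 to 0.55 RPKM with EMO. Of 9 mural markers, which accompany Notch3 in vessel walls, Rgs5 and Kcnj8 had 0 counts in every library, 3 of the 4 tested were lower DEGs, and Abcc9 had 0, 0 and 0 counts with TNF-α and 6, 2 and 6 with EMO. The list had a summed level of 23.97 to 25.9 RPKM with TNF-α and 1.502 to 1.93 RPKM with EMO. Of 8 leukocyte markers, Ptprc had at most 1 count in any library, and the 2 tested moved apart. Cd14 was a lower DEG (log2 fold change -1.10), and Cd68 rose by 0.75 (edgeR adjusted p = 2.4e-04), with 155, 172 and 142 counts with TNF-α and 259, 239 and 253 with EMO. The list had a summed level of 43.3 to 46.6 RPKM with TNF-α and 28.5 to 30.8 RPKM with EMO. Of 6 epithelial markers, Krt8 alone was tested and was a lower DEG. Epcam and Krt5 had 0 counts in every library, and Cdh1, Krt18 and Krt19 had at most 8 in any library. The summed level of this list was 297 to 322 RPKM with TNF-α and 58.7 to 68.7 RPKM with EMO. Nearly all of its counts were of Krt8.

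The 4 ligands together summed to 3.31 to 4.18 RPKM with TNF-α and 0.98 to 1.12 RPKM with EMO, 3.65-fold lower in the means (exact permutation test, two-sided p = 0.1). Dll4 made up 13.4% to 26.5% of this pool with EMO and none of it with TNF-α. Jag1 made up 32.2% to 34.5% with TNF-α and 31.8%, 24.03% and 9.30% in TNF-α+EMO replicates 1, 2 and 3, a mean difference of -11.9 percentage points that was -5.67 without TNF-α+EMO replicate 3 and -16.9 without replicate 1. Dll1 made up 65.0% to 67.1% with TNF-α and 48.2% to 64.2% with EMO, a mean difference of -7.87 points. This difference was -3.02 points without TNF-α+EMO replicate 1 and -11.0 points without TNF-α+EMO replicate 3. For each of these 3 shares the exact permutation p was 0.1, and 0.16 when adjusted over 8 shares.

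**Figure D2:**
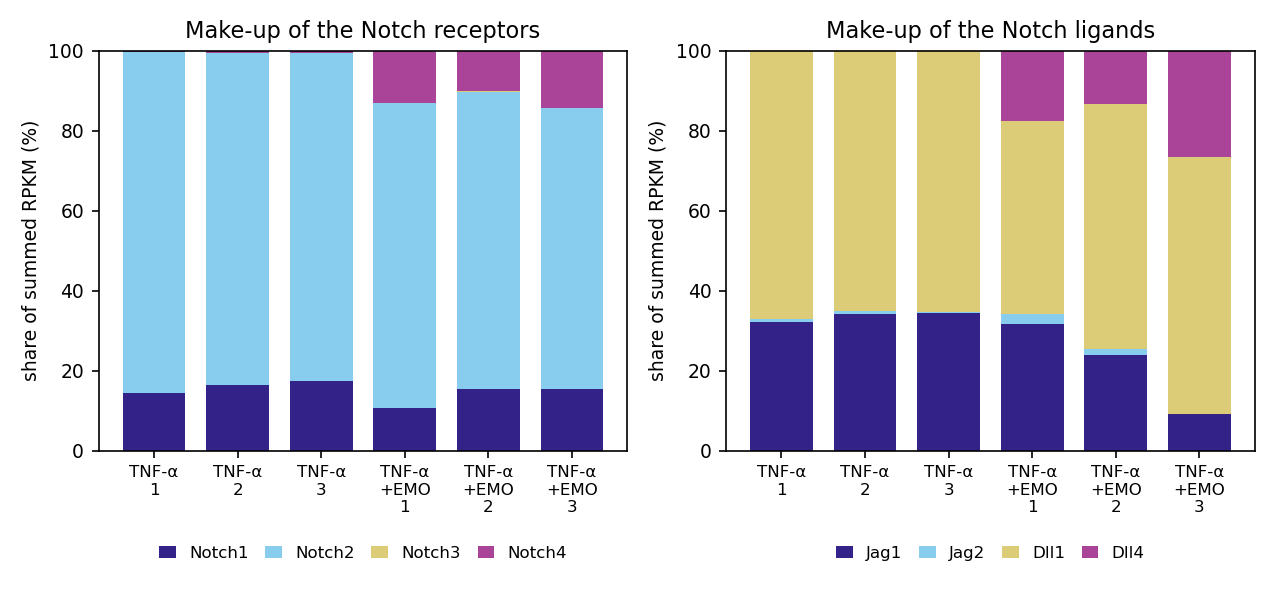
Share of each Notch receptor (left) and ligand (right) in the summed RPKM of its pool, in percent, for each library. Notch2 holds 82.0% to 85.2% of the receptor pool with TNF-α, Notch4 reaches 10.1% to 14.2% with EMO, and Dll4 appears in the ligand pool with EMO at 13.4% to 26.5%.

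The target Hes1 (ENSRNOG00000001720, chromosome 11, 74312806 to 74315248, minus strand) encodes a repressor that Notch and other signals induce. It had 542, 492 and 490 counts with TNF-α and 388, 325 and 389 with EMO. The groups did not overlap, as in 82.9% of all genes tested, yet the gap was small beside that of the receptors. Normalized counts went from 496 ± 30.7 to 376 ± 38.0, with a log2 fold change of -0.40 (standard error 0.10, edgeR adjusted p = 0.0035), which passes the adjusted p but not the fold change threshold. All 7 members tested passed the adjusted p alone, 5 lower and 2 higher, as did 80.9% of all genes tested, 41.4% lower and 39.4% higher. The level of Hes1 was 20.0 ± 1.23 RPKM with TNF-α and 15.2 ± 1.53 RPKM with EMO, above 66.1% and 60.6% of the genes tested.

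Per length, Hes1 was slightly below Notch2 with TNF-α and several times above it with EMO. The log2 ratio of Hes1 over Notch2 in RPKM was -0.44 to -0.20 with TNF-α and 2.51 to 2.73 with EMO, a difference of 2.91 (exact permutation test, two-sided p = 0.1, the smallest possible, adjusted p = 0.3 over the 3 ratios). Hey1 (ENSRNOG00000011593, chromosome 2, 95320283 to 95322696, plus strand), a repressor of the HEY family, had 0 counts in every TNF-α library and 0, 2 and 0 with EMO, so it was at the floor in both groups.

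**Figure D3:**
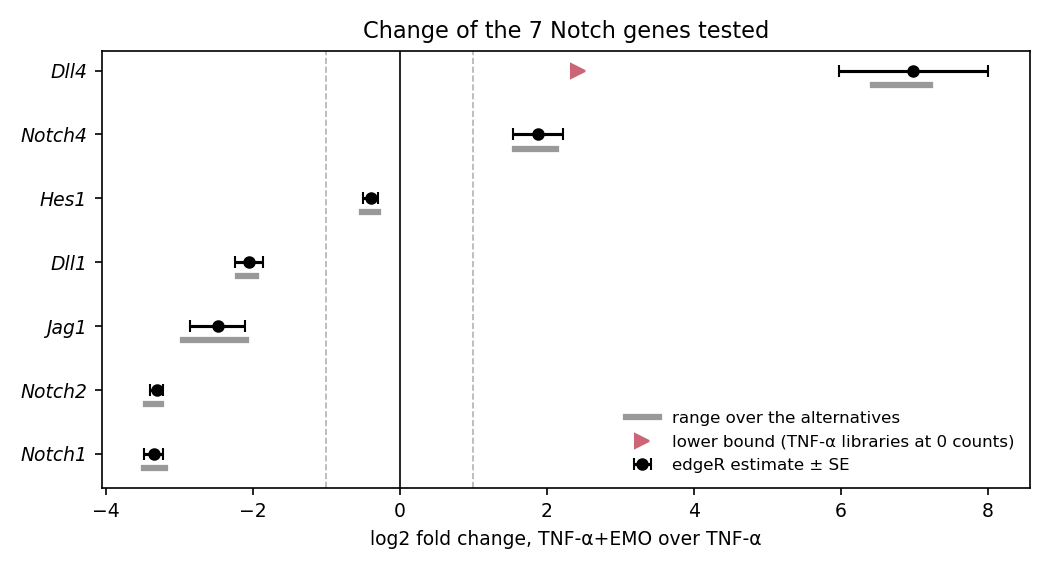
Log2 fold change of the 7 Notch genes tested, TNF-α+EMO over TNF-α (black points with standard error). Grey bars give the range over the alternative settings, dashed lines mark the fold change threshold, and the red triangle is the lower bound for Dll4 (2.42), whose fitted value depends on the prior count. Notch1 and Notch2 lie together near -3.3, and Hes1 lies between the thresholds at -0.40.

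Other genes of the pathway were taken from a list of 61, of which 59 were analysed and 50 could be tested. Of these, 21 were lower and 4 higher DEGs. The 25 DEGs of 50 are close to the 47.3% over all genes tested, of which 27.8% were lower and 19.5% higher, and these shares are also the background of the counts by role. The median log2 fold change of the list was -0.66, beside -0.01 over all genes tested. Neurl1b and Dll3 had at least 10 counts in every library of the TNF-α group only. The median of the 7 members tested was -2.06, also with Dll4 set at its bound.

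Among other HES, HEY and feedback targets, 0 of the 4 tested were DEGs. Nrarp, a feedback inhibitor that binds the Notch intracellular domain, fell by 0.72 (standard error 0.19, edgeR adjusted p = 0.0048), from 119 ± 13.2 to 72.7 ± 9.49 normalized counts. Hes6 fell by 0.67 (standard error 0.17, edgeR adjusted p = 0.0056). Hey2 (log2 fold change -0.28) and Hes7 (0.78) did not pass, with edgeR adjusted p of 0.35 and 0.083. Of the other ligands, Dll3 alone was tested and did not pass (log2 fold change -0.19, edgeR adjusted p = 0.66).

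Among the proteases that process the receptors, 3 of 9 were lower DEGs and 1 was higher, a lower share near the 27.8% over all genes tested. Adam17, a sheddase of many surface proteins including Notch, fell by 1.87 (standard error 0.07), with 5501, 5709 and 5417 counts with TNF-α and 1527, 1483 and 1317 with EMO. Furin, which cleaves the receptor precursor, fell by 1.65, and Adam10, the main ligand-dependent Notch protease, by 1.15. The γ-secretase subunits were divided. Psenen rose by 1.02 and Aph1a by 0.61, whereas Ncstn and Aph1b both fell by 0.40 and Psen2 (log2 fold change -0.09) did not pass. Among the glycosyltransferases that modify the receptors, 2 of 4 were lower DEGs. Lfng, a Fringe enzyme that tunes which ligand a receptor answers to, had 402, 392 and 391 counts with TNF-α and 18, 12 and 19 with EMO, a log2 fold change of -4.52 (standard error 0.18, edgeR adjusted p = 1.3e-09). The related Rfng (log2 fold change -0.15) did not pass the test, and the difference between these 2 changes was not tested.

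In the RBPJ activator complex, 4 of 7 were lower DEGs and none was higher. Rbpj itself, the DNA-binding subunit, fell by 0.66 (standard error 0.08, edgeR adjusted p = 2.1e-05). Maml2, a Mastermind coactivator, fell by 2.94 (standard error 0.12), and its relative Maml1 fell by 0.62. The acetyltransferases Ep300, Crebbp and Kat2a had log2 fold changes of -1.12, -1.03 and -1.48. Among the corepressors of RBPJ and of HES proteins, 6 of 11 were lower DEGs and 1, Cir1, was higher (log2 fold change 1.08). Log2 fold changes were -2.19 for Tle2, -1.11 for Tle1, -1.02 for Ctbp2, -1.83 for Spen (a corepressor that binds RBPJ) and -1.78 for Hdac1.

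Among the genes of endocytosis and ubiquitin transfer, 6 of 14 were lower and 2 higher DEGs, against 27.8% and 19.5% over all genes tested. The 2 Mindbomb ligases, which activate ligands by ubiquitination, moved in opposite directions. Mib1 fell by 1.13, with 984, 1034 and 935 counts with TNF-α and 469, 446 and 368 with EMO, and Mib2 rose by 1.99, with 756, 768 and 786 counts with TNF-α and 2638, 2792 and 3308 with EMO (edgeR adjusted p of 1.4e-06 and 2.7e-09). Neurl1b, a Neuralized ligase for ligands, had 179, 168 and 187 counts with TNF-α and 0, 3 and 4 with EMO. It passed the filter through the TNF-α libraries, and since its mean with EMO, 2.38 normalized counts, lay under 3 counts, the fitted fold change depends on the prior count and is not given. In the Deltex family, Dtx4 (log2 fold change -4.33) and Dtx3l (-3.05) fell, while Dtx3 rose by 1.24 and Dtx2 (log2 fold change 0.11) did not pass. Epn1 and Epn2, the epsins of ligand endocytosis, had log2 fold changes of -1.20 and -1.77.

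**Figure D4:**
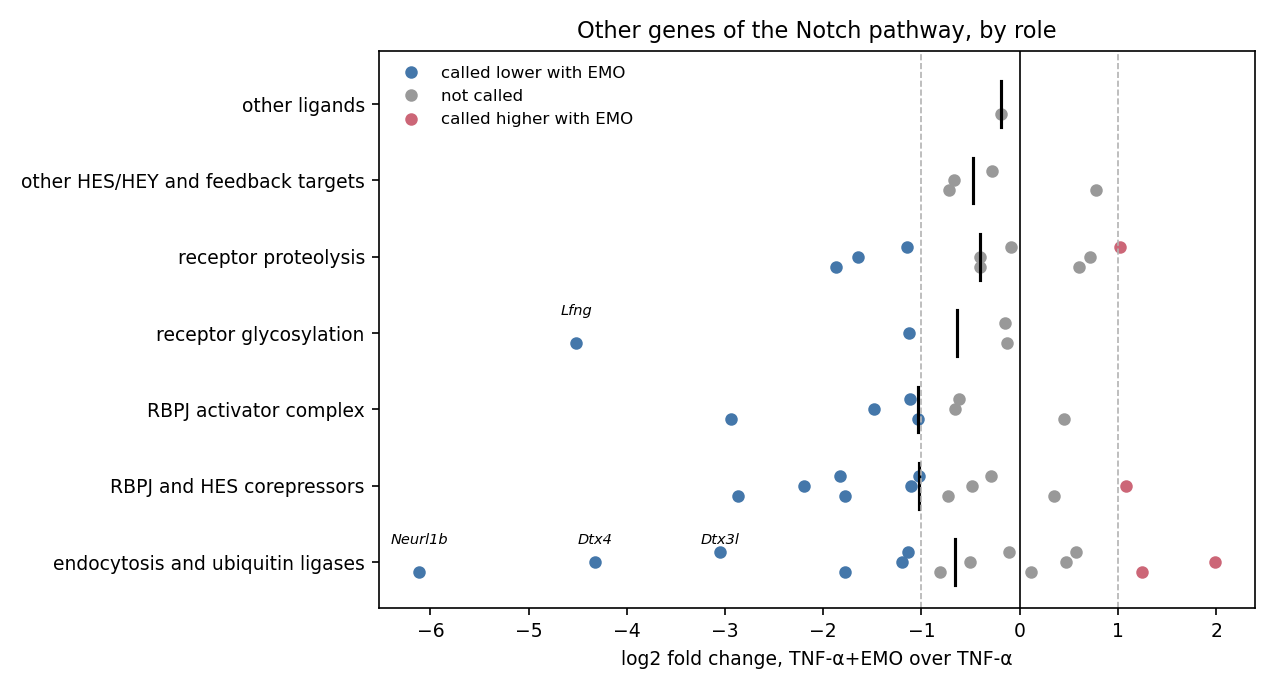
Log2 fold change, TNF-α+EMO over TNF-α, of the 50 other Notch pathway genes tested, by role. Each point is a gene (blue lower DEG, red higher DEG, grey neither), black lines are the medians per role, and dashed lines mark the fold change threshold. Lower DEGs number 21 and higher DEGs 4, and Lfng (-4.52) and Dtx4 (-4.33) lie at the lower end with Neurl1b, whose plotted value depends on the prior count.

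Likeness over the 6 libraries was measured by the root mean square difference of gene-centred log2 CPM between a member and each of 11238 named protein-coding genes. The genes nearest to Notch1 were RT1-N2 (0.067), Cachd1 (0.097) and Sptb (0.104). Those nearest to Notch4 were Dnaaf1 (0.193), Wfdc8 (0.215) and Siae (0.220). Centring leaves the difference between the groups in this measure, so a like change with EMO counts as likeness. Log2 fold changes were -3.29 for RT1-N2, -3.32 for Cachd1 and -3.62 for Sptb, beside -3.35 for Notch1. They were 2.78 for Dnaaf1, 1.86 for Wfdc8 and 1.78 for Siae, beside 1.88 for Notch4, whose counts are low. RT1-N2 belongs to the family of rat class I histocompatibility genes, among which reads can be shared, so its counts are uncertain.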

How the data were processed

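RNA from 6 samples of rat RA-FLS was sequenced by the authors' provider as poly(A)-selected paired-end libraries. Per the methods and the submitters' processing notes, reads were checked with FastQC, trimmed with Trimmomatic and aligned to Rnor_6.0 with HISAT2. The counter, annotation release and strand setting are not given in the sources used here. The authors deposited raw counts per gene, which were used for every result, and FPKM values, which served only as an alternative for the shares. The 5 columns of the authors' own comparison (group means, log2 fold change, p-values) were not used.

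The filter kept the 13614 of 34156 genes that reached 10 counts in 3 or more libraries. Scaling was by TMM, and edgeR 4.0.16 (R 4.3.3) gave a robust quasi-likelihood F test without a replicate block. P-values were adjusted by Benjamini-Hochberg over the 13614 genes. A standard error is the log2 fold change over the square root of F. RPKM used the effective library size and the deposited gene length. Log2 CPM for the likeness between genes had a prior count of 2. Shares, sums and ratios were compared by exact permutation tests (scipy 1.17.1). Depth was 16813322 to 17794455 counts, with a floor of 3 counts per library that covers counting error only. The fits were also run on simulated counts in which few genes changed. Scaling under a change as broad as that seen here was therefore not tested by simulation.

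Groups come from the treatment labels. No pairing of the libraries by replicate number was seen: deviations of same-numbered libraries from their group means correlated at -0.0068 to 0.068 across genes. Those of libraries with different numbers correlated at -0.070 to 0.053. With 3 libraries per group, these values cannot exclude that libraries were handled in pairs. The 10 members and the lists were chosen with earlier results of these data known. The rule names all members and the DEGs of the pathway list. Genes of that list that are no DEG were singled out after their values were seen, as were the sums and ratios. Genes most like a member are the 3 nearest to the members with the lowest and the highest log2 fold change whose lower group mean exceeded 3 normalized counts. Alternatives were DESeq2 1.42.0, other scalings and filters, the replicate block and leaving out each library. Leaving out each library with the genes tested held fixed was added after seeing the data. Of the pathway list, 2 genes were not analysed here, and some others are not reported here by name. Protein sequences were not used here.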

Additional observations from a re-analysis of the deposited data

How the results depend on the processing

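All 7 members tested kept their direction and stayed on the same side of an adjusted p of 0.05 in every fit that could test them, 19 alternatives each and 15 for Dll4. The log2 fold change ranged from -3.46 to -3.25 for Notch2, -3.48 to -3.20 for Notch1, -2.95 to -2.09 for Jag1, -2.21 to -1.96 for Dll1, -0.51 to -0.29 for Hes1 and 1.56 to 2.12 for Notch4. The 4 lower DEGs among the members were 4 in each alternative but one, no filter on low counts, which gave 5 by adding Notch3. The number of higher members was 1 in place of 2 with a minimum of 1 CPM in 3 libraries, with or without the fold change threshold, and 1 to 2 over the fits that left out a library, again with or without that threshold. Dll4 was not tested under the CPM minimum, which it missed, nor without any 1 of the TNF-α+EMO libraries, since it then has 10 counts in too few libraries, whereas it was tested and higher without each TNF-α library. With the genes tested held fixed, chosen after seeing the data, the number was 2 whichever library was left out. In the pathway list, 4 higher DEGs became 2 when only total counts were used for scaling, which moved the median log2 fold change of all genes from -0.01 to -0.12, and 2 to 5 over the fits that left out a library (2 without TNF-α replicate 3, and 5 without TNF-α replicate 1 with the genes tested held fixed). The 21 lower DEGs ranged from 19 to 21 in those fits. Without the filter on low counts the list had 24 lower DEGs, Hes2, Hes3 and Heyl among them. Scaling by the upper quartile gave 3 higher DEGs in the list. With the replicate number as a block, 4 members were lower and 2 higher DEGs, 5 lower and 2 higher by adjusted p alone, and 21 lower and 4 higher in the pathway list, so the block changed no call. Shares within a library cannot change with its scaling, so the deposited FPKM gave no separate check of them. Notch3, Jag2 and Hey1 are limited by depth, and the counts of Dll4 and Notch4 are low.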

Other observations

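Some targets of the pathway that did not pass the filter on low counts were seen in the TNF-α libraries only or mainly. Hes2 had 8, 10 and 7 counts with TNF-α and 0, 0 and 0 with EMO, so it was at least 2.65-fold lower with EMO when set against 3 counts per library. Heyl had 4, 12 and 6 against 0, 0 and 0, at least 2.33-fold lower. Without the filter their edgeR adjusted p was 4.4e-04 and 0.0012. Hes3 had 4, 6 and 11 counts with TNF-α and 3, 0 and 0 with EMO (edgeR adjusted p = 0.029 without the filter). Hes5 had at most 2 counts in any library, and Dlk1, Dlk2 and Dtx1 had 0 in all 6. These genes were picked out after their values were seen, and their levels are near the limit that this depth can show.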
